A study of Homo sapiens with 6 samples.

Results

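The cytosolic ribosomal protein genes encode the protein part of the ribosome that translates mRNA in the cytoplasm. They were taken by symbol: RPL or RPS followed by a number, with an optional A, X, L, AL or L1, together with RPSA, RPLP0, RPLP1 and RPLP2. The rule found 83 of the 23152 genes in the count table, 32 of the small subunit and 51 of the large subunit. Of these, 77 are core genes and 6 are paralogs, that is related second copies of a core gene (RPL7L1, RPL22L1, RPL26L1, RPL36AL, RPL39L and RPS27L). FAU, which encodes a ribosomal protein fused to a ubiquitin-like protein, lies outside the rule because of its name. The paralogs RPL3L and RPL10L were not analysed here.

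T24 is an established human bladder cancer (BLCA) cell line. The study compared T24 cells with an empty vector (vector, 3 samples) and T24 cells overexpressing RNF112 (oeRNF112, 3 samples), an E3 ubiquitin ligase, and sequenced polyadenylated RNA with a stranded kit. The labels name siRNA transfection as the treatment of all 6 samples, while their titles and the study describe overexpression, and neither says whether replicates were separate cultures. The p-values therefore measure the spread between these samples, which may be technical. Whether the sequenced cells were transiently transfected or stably transduced, and when RNA was harvested, was not given in the sources used here. For RNF112 itself, 27, 19 and 24 reads were counted in vector and 29753, 36963 and 31712 in oeRNF112, which may include reads from the construct.

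Each ribosome carries a single copy of most of these proteins, so the genes are expressed together and are among the most abundant mRNAs of a growing cell. Most of the mRNAs begin with a 5′ terminal oligopyrimidine (TOP) tract, a C followed by an unbroken run of C and T, through which mTOR and the RNA-binding protein LARP1 control their translation and stability. MYC is known to raise transcription of ribosomal protein genes, and free RPL5 and RPL11 can bind MDM2.

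Total counts were between 40029547 and 41259569 per sample. Counts were scaled with TMM factors, edgeR's correction for a few genes taking up the reads, and levels are given as CPM, the count of a gene relative to the scaled total of its sample. In each vector sample 20.6% to 22.9% of all reads fell on the 100 most abundant genes, and in each oeRNF112 sample 18.0% to 19.6%. The epithelial keratins of T24 were present, with KRT7 between 1247 and 1661 CPM in vector and between 940 and 1104 CPM in oeRNF112. By edgeR, KRT7 and KRT18 were called lower (log2 fold changes -0.48 and -0.51, adjusted p = 0.0226 and 0.013). KRT8 and KRT19 were not called. The epithelial marker EPCAM was low, at 1.65 to 2.57 CPM in vector and 3.45 to 4.45 CPM in oeRNF112. It was called higher by edgeR (log2 fold change 0.84, adjusted p = 0.0208). The uroplakins that define differentiated urothelium were near 0, with at most 20 counts of UPK1A, 7 of UPK2 and 1 of UPK3A in any sample. Other urothelial markers were expressed, PPARG at 52.0 to 60.5 CPM and GATA3 at 2.93 to 4.37 CPM over all samples. FOXA1 was at 35.8 to 41.1 CPM in vector and 13.9 to 20.4 CPM in oeRNF112. It was called lower by edgeR (log2 fold change -1.08, adjusted p = 0.00132). The summed level of 9 leukocyte markers was between 31.8 and 34.3 CPM in vector and between 58.1 and 70.8 CPM in oeRNF112, mostly from CD68, a lysosomal protein that tumour cells also make, while CD3E had 0 counts in 5 of the 6 samples and PTPRC had at most 54 counts in any sample. Among the leukocyte markers, edgeR called CD68 higher (log2 fold change 1.21, adjusted p = 0.000312) and LAPTM5 lower (-0.88, adjusted p = 0.0308). The 6 fibroblast markers summed to at most 11.5 CPM and the 4 endothelial markers to at most 0.594 CPM. The fibroblast marker PDGFRA, at 1 to 29 counts per sample, was called higher by edgeR (log2 fold change 2.36, adjusted p = 0.0194). The part of these markers in the results was not tested.

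The share of all counts that lay on the 83 genes was 9.74%, 8.07% and 10.1% in vector, against 7.28%, 8.54% and 6.39% in oeRNF112. The mean share was lower by 1.91 percentage points in oeRNF112, against a pooled standard deviation of 1.09, and the groups overlapped because oeRNF112 replicate 2 lay above vector replicate 2. Among the 100 most abundant genes of a sample, 41, 34 and 40 were ribosomal protein genes in vector and 30, 36 and 28 in oeRNF112. In RNA from whole cultures, fewer cells of a kind and less RNA of these genes per cell cannot be told apart.

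Ribosomal protein mRNAs were lower in oeRNF112 in nearly every gene, by a modest amount. The fitted log2 fold change was negative for 82 of the 83 genes, with a median of -0.36, which is 78.0% of the vector level. The 25th and 75th percentiles were -0.47 and -0.28, and the extremes were RPS3A at -0.81 and RPL22L1 at 0.19. With library totals in place of TMM factors, 78 genes were negative and 5 positive. Over the 14467 genes tested the median was 0.00, with percentiles of -0.20 and 0.24. All 83 genes passed the filter on low counts.

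By edgeR's quasi-likelihood test with Benjamini-Hochberg adjustment over all genes tested, 25 of the 83 genes (30.1%) fell, against 8.14% of all genes tested. None of the 83 rose, against 9.97% of all genes tested, at adjusted p under 0.05. Without adjustment, 55 of the 83 had a p under 0.05, and DESeq2 called 41 lower and 0 higher. The 1667 other genes that were at least as abundant as the core genes (121 CPM or more, with RPL17, RPS10 and RPL36A set aside) had a median of -0.07, and 13.3% of them were called lower. The oeRNF112 samples all lay below the vector samples for 23 of the 83 genes, against 17.9% of all genes tested, and all above them for 0, against 18.9%. The other 60 genes overlapped.

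**Figure D1:**
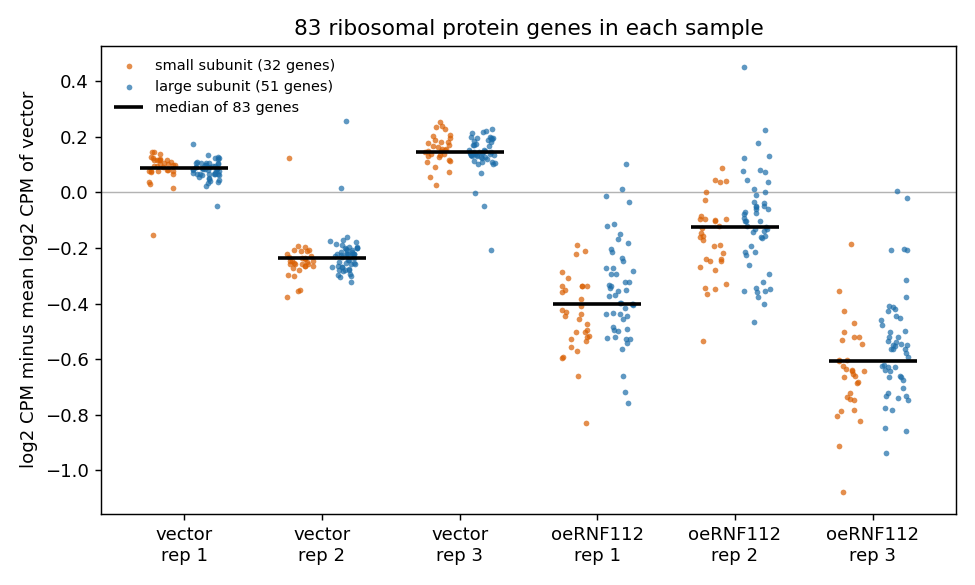
The 83 ribosomal protein genes in each sample, as log2 CPM (TMM-normalised) minus the gene's mean log2 CPM over the 3 vector samples. Each point is a gene, coloured by subunit, and the black bar is the median of the 83 genes, at 0.09, -0.24 and 0.15 in vector and at -0.40, -0.12 and -0.61 in oeRNF112; vector replicate 2 and oeRNF112 replicate 2 lie closest to the other group.

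The genes moved as a block between replicates of 1 group as well. Relative to the vector mean, the median of the 83 genes was 0.09, -0.24 and 0.15 on the log2 scale in vector, against -0.40, -0.12 and -0.61 in oeRNF112. Vector replicate 2 was the lowest vector sample for 80 of the 83 genes, and oeRNF112 replicate 2 was the highest oeRNF112 sample for 80. Replicate 3 of oeRNF112 was the lowest of all 6 samples for 78 genes. A single axis held 97.3% of the within-group variance of the 83 genes, against 44.9% for all genes tested, and the median correlation between the within-group deviations of a pair of ribosomal protein genes was 0.98 over 6 samples. The 25 calls are therefore not 25 separate observations.

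The count of calls depended on single libraries. It was 60 without vector replicate 2 and 51 without oeRNF112 replicate 2, and it was 1 without vector replicate 1, 5 without vector replicate 3, 2 without oeRNF112 replicate 1 and 10 without oeRNF112 replicate 3. The median log2 fold change was between -0.49 and -0.27 over these 6 fits. With scaling by library totals, 15 genes were called lower, the median of the 83 genes was -0.26, the median of all genes tested was 0.10, and 75.4% of the calls over all genes were higher in oeRNF112, against 55.0% with the TMM factors. All 25 genes were also called by DESeq2.

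Among the small subunit genes, the median log2 fold change was -0.42 and 11 of 32 were called lower, and among the large subunit genes it was -0.34 and 14 of 51 were called lower. These are 34.4% and 27.5%, against 30.1% of the 83 genes and 8.14% of all genes tested. The difference between the subunits was not tested. The 77 core genes had a median of -0.39 and all 77 were fitted lower, 24 of them past the threshold. The 6 paralogs had a median of -0.06 and 1 of them, RPL7L1, was called lower.

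**Figure D2:**
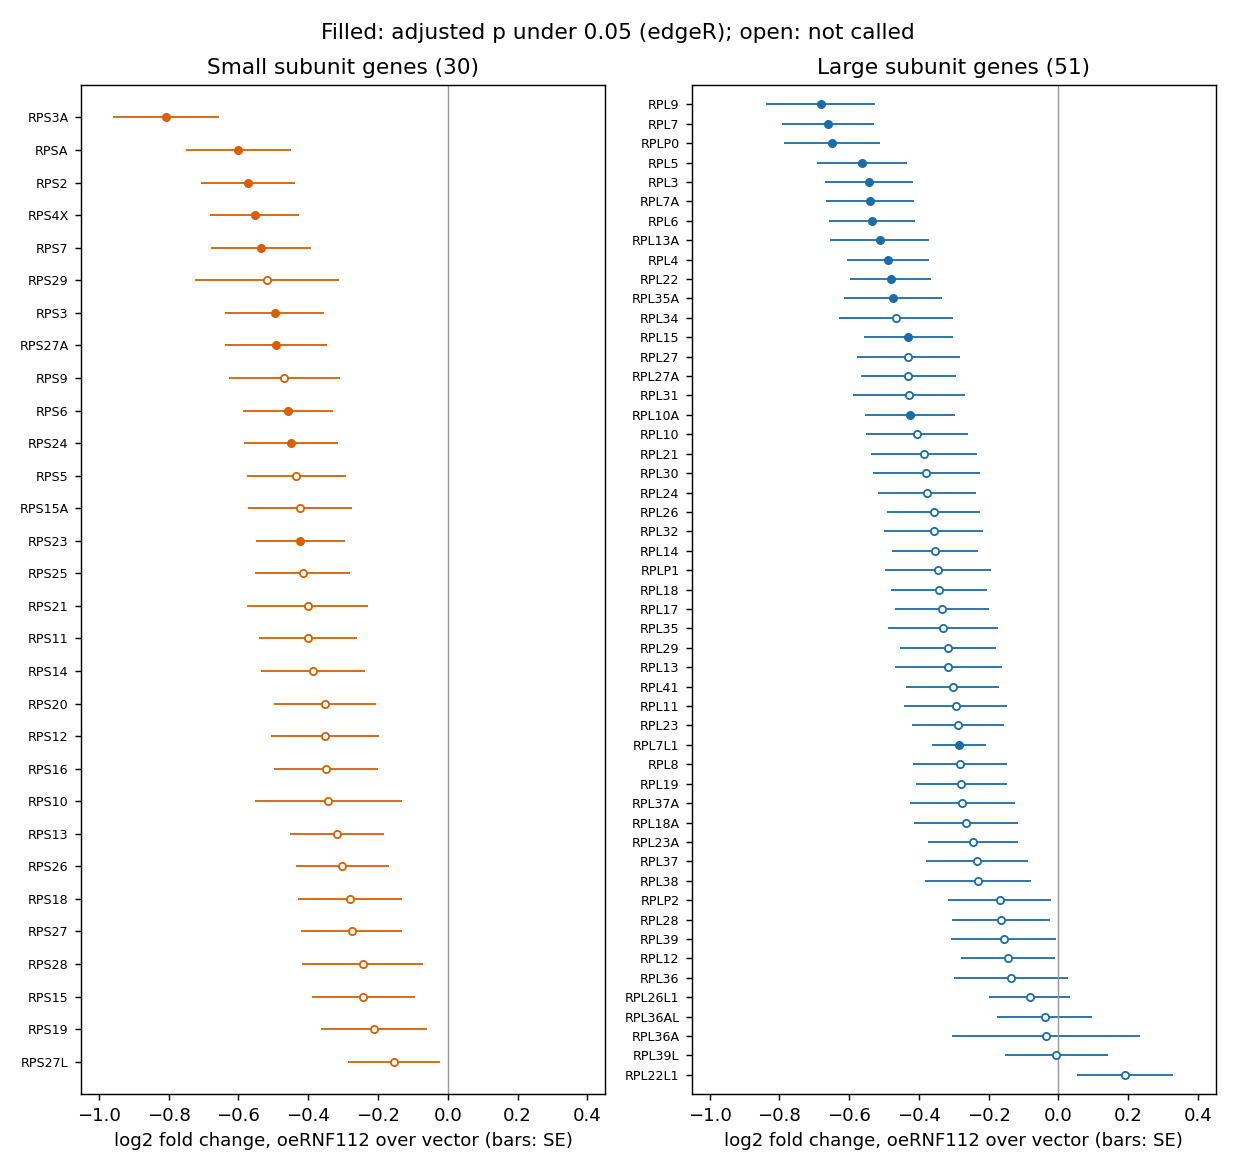
Log2 fold change of oeRNF112 over vector for 30 small subunit genes (left) and the 51 large subunit genes (right), from edgeR's fit on 3 against 3 samples, with bars of 1 standard error. Filled points passed an adjusted p of 0.05 (10 and 14 genes), and only RPL22L1 lies to the right of 0.

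RPS3A, which sits on the small subunit near where the mRNA leaves it, fell the most. Its level was 2148, 1689 and 2213 CPM in vector and 1127, 1383 and 948 CPM in oeRNF112. Every oeRNF112 sample lay below every vector sample. At a log2 fold change of -0.81 (standard error, SE, 0.152), it had an adjusted p of 0.00658 by edgeR, and the gene was called lower in all 17 alternative analyses, each sample left out in turn included. GENCODE annotates 38 pseudogenes of RPS3A, and reads that fit such copies equally well could be lost or split by the counting. The alternative that adds pseudogene counts held only RPSAP58, of RPSA, and so added none to RPS3A.

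RPL9, a protein near the site where translation factors bind, had 1012, 774 and 1031 CPM in vector and 551, 718 and 487 CPM in oeRNF112. The groups stood apart, although oeRNF112 replicate 2 was close to vector replicate 2. It had a log2 fold change of -0.68 (SE 0.157, adjusted p = 0.016). RPL7, a protein of the large subunit body, had 2230, 1780 and 2292 CPM in vector and 1321, 1513 and 1152 CPM in oeRNF112. It had a log2 fold change of -0.66 (SE 0.132, adjusted p = 0.00861) and was called lower in 15 of the 17 alternatives, while RPL6, RPL9 and RPLP0 were called in 13 each.

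The P-stalk is the arm of the large subunit that recruits and activates the translation factors. Its base RPLP0 had 3367, 2781 and 3541 CPM in vector and 1955, 2431 and 1787 CPM in oeRNF112, with no overlap. For RPLP0 the log2 fold change came to -0.65 (SE 0.138, adjusted p = 0.0112). The stalk's other members did not pass the test. RPLP1, an arm protein that dimerises with RPLP2, had a log2 fold change of -0.34 (adjusted p = 0.145). RPLP2 had 565, 450 and 640 CPM in vector and 502, 563 and 408 CPM in oeRNF112, with overlapping groups and a log2 fold change of -0.17 (adjusted p = 0.46). RPL12, which binds beside the stalk base, had 1682, 1384 and 1772 CPM in vector and 1446, 1696 and 1235 CPM in oeRNF112. Its groups overlapped too, and its log2 fold change was -0.14 (adjusted p = 0.488). The 4 mRNAs of this structure ranged from -0.65 to -0.14.

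The 5S RNP is the particle of 5S rRNA, RPL5 and RPL11 that binds MDM2 when ribosome assembly is disturbed. RPL5 had 1530, 1234 and 1526 CPM in vector and 962, 1109 and 831 CPM in oeRNF112. The groups did not overlap, and the log2 fold change came to -0.56 (SE 0.129, adjusted p = 0.0156). RPL11 had 1005, 768 and 1106 CPM in vector and 741, 909 and 696 CPM in oeRNF112, with overlap and a log2 fold change of -0.29 (adjusted p = 0.191).

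**Figure D3:**
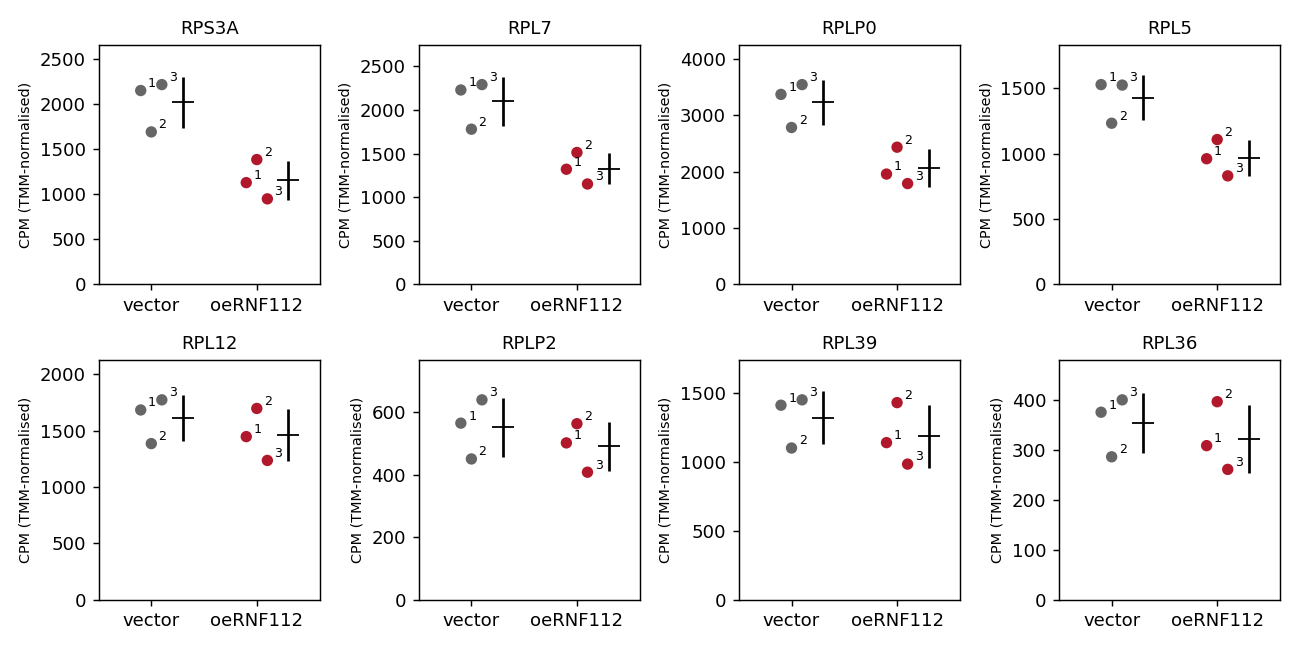
CPM (TMM-normalised, linear axes from 0) of 4 ribosomal protein genes that fell (top row: RPS3A, RPL7, RPLP0 and RPL5) and of 4 with small differences (bottom row: RPL12, RPLP2, RPL39 and RPL36) in each sample. Numbers are replicates, and the bars to the right of the points are the mean and 1 standard deviation of 3 samples; the top genes show no overlap, while in the bottom genes oeRNF112 replicate 2 lies among the vector samples.

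On the small subunit, RPS2 and RPS3 line the mRNA entry channel and both fell. RPS2 had 3563, 3025 and 3867 CPM in vector and 2293, 2726 and 2015 CPM in oeRNF112, a log2 fold change of -0.57 (adjusted p = 0.0179). RPS3 had a log2 fold change of -0.50 (adjusted p = 0.0379). In neither gene did the groups overlap. Near the mRNA exit, 1 of 4 further genes fell beside RPS3A (25%, against 30.1% of the 83 genes and 8.14% of all genes tested). RPSA, the ribosomal form of the laminin receptor, had 3025, 2371 and 3176 CPM in vector and 1795, 2255 and 1604 CPM in oeRNF112, with no overlap and a log2 fold change of -0.60 (adjusted p = 0.0224). RPS21, RPS26 and RPS28 had log2 fold changes of -0.40, -0.30 and -0.24 and did not pass. The row of the RPSA pseudogene RPSAP58 moved with its parent, from 4111, 3359 and 3929 counts to 2664, 3023 and 2422 counts (log2 fold change -0.57, adjusted p = 0.0106), and the counting may have split reads between the pair.

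Other called genes of the small subunit had well-known roles outside its structure. RPS6, the S6 kinase substrate, had 1532, 1186 and 1457 CPM in vector and 955, 1173 and 911 CPM in oeRNF112, with groups only just apart. Its log2 fold change was -0.46 (adjusted p = 0.036). RPS27A, which is made as a fusion with ubiquitin, had 1132, 869 and 1156 CPM in vector and 741, 880 and 623 CPM in oeRNF112. It was called lower (log2 fold change -0.49, adjusted p = 0.0439) although oeRNF112 replicate 2 lay above vector replicate 2. FAU, made as a fusion with a ubiquitin-like protein, had a log2 fold change of -0.31 and did not pass. RPS4X, RPS7, RPS23 and RPS24 were called lower as well, at -0.55, -0.53, -0.42 and -0.45.

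In the large subunit, RPL3, which lies close to the peptidyl transferase centre, had 2661, 2238 and 2823 CPM in vector and 1762, 2002 and 1541 CPM in oeRNF112. Its groups stood apart and its log2 fold change was -0.54 (adjusted p = 0.017). Of 9 proteins that line the polypeptide exit tunnel or surround its mouth, RPL4 (log2 fold change -0.49) and RPL22 (-0.48) fell. That is 22.2%, against 30.1% of the 83 genes and 8.14% of all genes tested. The other 7, among them RPL39 at -0.16 and RPL23A at -0.25, did not pass. RPL6, RPL7A, RPL10A, RPL13A, RPL15 and RPL35A were called as well, between -0.54 and -0.43. Of 9 genes whose loss of 1 copy causes Diamond-Blackfan anemia, an inherited failure of red cell production, RPL5, RPL35A, RPS7 and RPS24 fell. That is 44.4%, against 30.1% of the 83 genes and 8.14% of all genes tested, and the difference from the family was not tested. RPS19, the most often mutated of the 9, had a log2 fold change of -0.21 (adjusted p = 0.361).

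The sequences around the start sites of some of these genes show a feature that most of the family shares. They come from RefSeq on GRCh38.p14, 30 bases in the direction of transcription, 10 before and 20 from the listed start, and capitals mark the unbroken run of C and T that begins with a C at the start. The first 7 are genes that fell, of which RPS4X has no such run and RPL3 a run of 4.

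RPS3A: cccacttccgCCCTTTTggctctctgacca
RPLP0: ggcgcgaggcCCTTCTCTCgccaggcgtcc
RPSA: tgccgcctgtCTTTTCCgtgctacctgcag
RPL7A: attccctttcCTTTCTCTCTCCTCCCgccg
RPL22: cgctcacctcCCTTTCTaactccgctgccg
RPL3: gccgaccggcCTCTaccggcgggatttgat
RPS4X: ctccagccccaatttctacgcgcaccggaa

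The next 4 are among the 6 core genes whose log2 fold changes lay closest to 0.

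RPL36: cggcgccagcCCTTCCgccacggccgtctc
RPLP2: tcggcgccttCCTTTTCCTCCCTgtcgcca
RPL12: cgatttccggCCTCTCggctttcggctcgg
RPL39: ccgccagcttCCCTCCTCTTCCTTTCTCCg

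The last 5 are paralogs, of which only the first carries a run of more than 3 pyrimidines at its start.

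RPL22L1: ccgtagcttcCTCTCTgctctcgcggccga
RPL36AL: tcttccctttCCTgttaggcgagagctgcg
RPL26L1: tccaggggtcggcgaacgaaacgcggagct
RPL7L1: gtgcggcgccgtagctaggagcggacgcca
RPS27L: gatgccgagcgcagatcgcttgcagcttgc

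RPS3A lies at chr4:151099618-151099647 on the plus strand, RPLP0 at chr12:120201092-120201121 on the minus strand, RPSA at chr3:39406710-39406739 on the plus strand, RPL7A at chr9:133348208-133348237 on the plus strand, RPL22 at chr1:6199576-6199605 on the minus strand, RPL3 at chr22:39319604-39319633 on the minus strand and RPS4X at chrX:72277229-72277258 on the minus strand. RPL36 lies at chr19:5690285-5690314 on the plus strand, RPLP2 at chr11:809957-809986 on the plus strand, RPL12 at chr9:127451387-127451416 on the minus strand and RPL39 at chrX:119791611-119791640 on the minus strand. RPL22L1 lies at chr3:170870176-170870205 on the minus strand, RPL36AL at chr14:49620607-49620636 on the minus strand, RPL26L1 at chr5:172958719-172958748 on the plus strand, RPL7L1 at chr6:42879606-42879635 on the plus strand and RPS27L at chr15:63157458-63157487 on the minus strand. Each window covers the last promoter bases and the first bases of exon 1.

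The tract was common in the family, and it was not more frequent among the genes that passed the test. A promoter sequence was found for 67 of the 83 genes. A C followed by at least 4 more C or T stood at a listed start in 47 of them (70.1%), against 5.14% of 27305 genes. It stood at the start of 46 of 62 core genes (74.2%) and 1 of 5 paralogs. Among the core genes it was present in 12 of 20 that were called lower (60%) and in 34 of 42 that were not (81.0%). The longest run of those printed, 19 bases, belongs to RPL39, whose log2 fold change was -0.16, and the 7-base run of RPS3A to the gene at -0.81. RefSeq starts can differ by a few bases from the start used in T24 cells, so that a missing run says only that these letters are not at the listed base.

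Short motifs were counted in the 300 bases from 250 before to 50 after each start, on both strands. The ETS core CCGGAAG was found in 24 of the 67 promoters (35.8%), against 12.2% of all genes, and in 6 of the 20 called core genes and 16 of the 42 others. AAGATGGC, a YY1-type motif that spans the start of many housekeeping genes, was found in 7 (10.4%), against 3.52%. The E-box CACGTG, the sequence bound by MYC with MAX, was found in 5 (7.46%), against 8.77%, and TATAAA in 6 (8.96%), against 14.0%. TATAAA stood in 4 of the 20 called core genes and 1 of the 42 others. For AAGATGGC these counts were 3 and 3, and for CACGTG 1 and 3. Differences in these small counts were not tested. A match is a description of these letters and not evidence of binding.

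Log2 fold changes were further below 0 in core genes with longer coding sequences. Over the 77 core genes, Pearson's r between coding length and log2 fold change was -0.58 and Spearman's rho was -0.55, a description across genes that share libraries. For the length of the whole mRNA, r was -0.02 and rho -0.34. For the GC percent of the mRNA they were 0.31 and 0.29, so that coding length had the strongest relation of those computed. The called core genes had a median coding length of 736.5 bases (24 genes) and the others of 420 bases (53 genes). In the 26 genes with the longest coding sequences, 576 to 1281 bases, the median log2 fold change was -0.51 and 19 genes were called. In the 24 genes of 408 to 564 bases it was -0.34 with 2 called, and in the 27 genes of 75 to 405 bases it was -0.35 with 3 called. Among other genes of the same coding lengths, the long genes instead lay closest to 0, with medians of -0.03 for 4194 long, -0.08 for 704 intermediate and -0.13 for 579 short genes. RPL41, the shortest at 75 bases, had a log2 fold change of -0.30, and RPL8, at 771 bases, had -0.28 and was an exception among the long genes.

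In this length pattern the oeRNF112 samples differed from vector replicate 2, in which the genes were also low. The median of the longest group minus the median of the shortest group, each relative to the vector mean on the log2 scale, was -0.02, 0.05 and -0.04 in the vector samples. In the oeRNF112 samples it was -0.17, -0.18 and -0.14. The groups did not overlap on this measure, although they overlapped on the level of the genes as a whole. Each gene was set relative to its own vector mean, so the vector values centre near 0 by construction. The oeRNF112 values restate the relation of log2 fold change to coding length and are not separate support for it. Over all 77 core genes, Spearman's rho between coding length and this relative level was -0.22, 0.52 and -0.39 in vector. It was -0.55, -0.61 and -0.42 in oeRNF112, so that vector replicate 3 lay close to oeRNF112 replicate 3. The pattern was noticed in these samples and has no test.

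The paralogs can replace or resemble a core protein, and their part of each pair was compared within samples. Only a change that both genes of a pair share cancels there. The median log2 fold change was -0.06 for the paralogs and -0.39 for the core genes. A lower core gene alone therefore raises the paralog's part, and a higher part does not mean more paralog mRNA. RPL22L1, the paralog of RPL22, had 57.3, 47.0 and 60.9 CPM in vector and 58.8, 74.8 and 55.0 CPM in oeRNF112, with overlap and a log2 fold change of 0.19 (adjusted p = 0.361). RPL22 had 597, 492 and 614 CPM in vector and 418, 445 and 357 CPM in oeRNF112, with no overlap and a log2 fold change of -0.48 (adjusted p = 0.0195). Per length, RPL22L1 made up 9.43%, 9.38% and 9.71% of the RPKM of the pair in vector and 13.2%, 15.4% and 14.3% in oeRNF112. No oeRNF112 sample reached down to the vector samples, and the spread within each group was narrow. The log2 ratio of RPL22L1 to RPL22 was higher by 0.67 in oeRNF112 (exact permutation test, two-sided p = 0.1, the smallest that 3 against 3 samples allow).

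In all 6 pairs were compared, and none could pass a threshold of 0.05 in this design. RPL26L1 was higher relative to RPL26 by 0.28, RPL39L relative to RPL39 by 0.16 and RPS27L relative to RPS27 by 0.12 on the log2 scale, each with no overlap (exact p = 0.1). RPL7L1 was higher relative to RPL7 by 0.38 with overlapping groups (exact p = 0.2). RPL7L1 itself, a nucleolar factor for large subunit assembly rather than a ribosome component, had 172, 171 and 163 CPM in vector and 142, 137 and 135 CPM in oeRNF112. It fell with a log2 fold change of -0.29 and a standard error of 0.078 (adjusted p = 0.0316), and it was the called gene with the smallest difference and the smallest standard error. RPL36AL showed no such shift against RPL36A, at -0.01 (exact p = 1), but RPL36A had only 28 to 40 counts per sample.

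**Figure D4:**
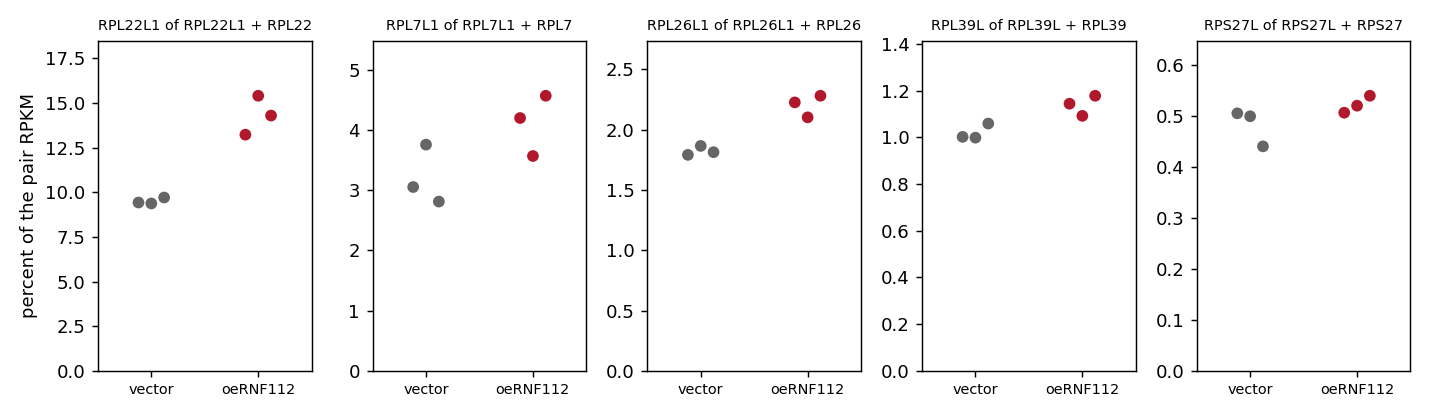
Percent of the summed RPKM of a pair that came from the paralog, for RPL22L1, RPL7L1, RPL26L1, RPL39L and RPS27L with their core genes, in each of the 3 vector (grey) and 3 oeRNF112 (red) samples, on linear axes from 0. RPL22L1 made up between 9.38% and 9.71% of its pair in vector, against 13.2% to 15.4% in oeRNF112, and the groups overlap only for RPL7L1.

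Levels of different genes are compared per length, as the deposited RPKM (reads scaled by the length of the gene and the total of the sample). Among the highest in vector were RPS2 at 3564 ± 379 (SD, n = 3), RPL39 at 3276 ± 422, RPL7A at 2768 ± 259 and RPS18 at 2697 ± 322. RPS2 and RPL39 lay within each other's standard deviation, as did RPL7A and RPS18, while RPL39 and RPL7A differed by more than either. In oeRNF112 RPL39 came first, at 3134 ± 544, and RPS2 followed at 2558 ± 346, a difference larger than either standard deviation. Over 74 core genes the median RPKM was 968 in vector and 743 in oeRNF112, and the order of the genes was almost the same in both groups (rank correlation 0.99 over 74 genes).

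RPKM ranged 70.2-fold over these 74 genes in vector. The deposited RPKM of RPS29, the lowest at 50.8, imply a gene length of 7472 bases, against 296 bases for its principal transcript, so its RPKM is understated if that transcript is the one expressed. Other genes had such gaps too, among them RPL14 (7136 against 916 bases), RPL15 (6452 against 820) and RPL28 (5585 against 852). For others the lengths were close, as for RPL39 (390 against 401). The range and the order of RPKM between genes therefore depend on the lengths used. The remaining 3 core genes had few counts. RPS10 had 55 to 82 counts per sample, RPL36A 28 to 40 and RPL17 712 to 1109. GENCODE annotates read-through genes over all 3 (RPS10-NUDT3, RPL36A-HNRNPH2 and RPL17-C18orf32), and reads that fall on 2 genes may have been left uncounted. This was not tested, and the fold changes of these 3 genes, -0.34, -0.04 and -0.33 on the log2 scale, rest on whatever reads were left.

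Other genes of the pathway were counted by lists. Of 25 protein-coding genes with TOP mRNAs that are not in the family, 14 fell (56%, against 8.14% of all genes tested) and 0 rose (against 9.97%), with a median log2 fold change of -0.36. EEF1A1, the elongation factor that brings aminoacyl-tRNA to the ribosome, had 14181, 12180 and 12985 CPM in vector and 8228, 8775 and 6945 CPM in oeRNF112. Its groups lay far apart, with a log2 fold change of -0.72 (SE 0.121, adjusted p = 0.00383). EEF1B2, its exchange factor subunit, had a log2 fold change of -0.67 and the initiation factors EIF3L, EIF4B, EIF3E and EIF3F had -0.66, -0.63, -0.60 and -0.54. EIF4B had 783, 776 and 699 CPM in vector and 512, 482 and 462 CPM in oeRNF112, and replicate 2 was the middle sample of both groups, unlike in the ribosomal protein genes.

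The 5 noncoding host genes of the TOP class, whose introns hold small nucleolar RNAs, did not fall with the coding genes. Their median log2 fold change was 0.32 and 1 of the 5 rose. SNHG1 had 102, 109 and 125 CPM in vector and 167, 181 and 161 CPM in oeRNF112, with no overlap and a log2 fold change of 0.59 (adjusted p = 0.00363). SNHG5 and GAS5 had 0.44 and 0.32, SNHG6 and SNHG8 had -0.03 and -0.20, and none of these 4 passed. The spliced RNAs of such host genes are known targets of nonsense-mediated decay, a route that depends on translation. Over all 30 TOP genes, 14 fell and 1 rose, and the 14 became 6 without vector replicate 1, 6 without oeRNF112 replicate 1, 7 without vector replicate 3 and 7 without oeRNF112 replicate 3.

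Of 19 genes that regulate ribosomal protein synthesis, 1 fell (5.26%, against 8.14% of all genes tested) and 0 rose, so that the share was no higher than in all genes. The one was MLST8, a subunit of the mTOR complexes, with 31.8, 30.1 and 37.0 CPM in vector and 24.7, 26.9 and 22.6 CPM in oeRNF112 (log2 fold change -0.41, adjusted p = 0.0308). The mRNAs of MYC, LARP1 and MTOR had log2 fold changes of -0.11, 0.05 and -0.15 (adjusted p = 0.377, 0.798 and 0.488). These are mRNA levels and do not measure the proteins or their activity.

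Of 15 dedicated chaperones and importers, which keep new ribosomal proteins soluble and carry them to the nucleus, 4 fell (26.7%, against 8.14% of all genes tested) and 0 rose. IPO4 had 46.4, 47.8 and 51.6 CPM in vector and 32.6, 33.4 and 33.1 CPM in oeRNF112, with a narrow spread and a log2 fold change of -0.56 (adjusted p = 0.00269). GRWD1, the chaperone of RPL3, had -0.36 (adjusted p = 0.027). Chaperones were not compared with their clients as a set. BTF3 and NACA, the subunits of the nascent polypeptide-associated complex, had -0.39 and -0.37, and both are themselves on the list of TOP mRNAs.

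Among 9 genes of the nucleolar stress response, 2 rose and 2 fell (22.2% each way, against 9.97% and 8.14% of all genes tested). CDKN1A, an inhibitor that stops the cell cycle, had 63.3, 57.0 and 67.7 CPM in vector and 109, 119 and 113 CPM in oeRNF112 (log2 fold change 0.85, adjusted p = 0.000463). MDM4, a relative of MDM2, rose by 0.60 (adjusted p = 0.0237), while NOP53, which binds the 5S RNP, had -0.53 (adjusted p = 0.0127). MDM2, a ubiquitin ligase, had a log2 fold change of -0.17 and did not pass (adjusted p = 0.24). The genes of this list thus moved in both directions.

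The mitochondrial ribosome, which is built from a separate set of nuclear genes, was compared as the most similar family. Of 77 of its genes tested, 12 fell (15.6%, against 8.14% of all genes tested) and 0 rose, with a median log2 fold change of -0.23. This lies between the median of the cytosolic genes, -0.36, and that of all genes tested, and the difference between the families was not tested.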

How the data were processed

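The 6 samples (3 vector, 3 oeRNF112) are RNA-seq libraries of T24 cells. Per the labels, the authors deposited raw counts of reads per gene and RPKM values, not pooled. The submitters' processing notes name Trimmomatic 0.36, featureCounts, Subread 1.5.1 and GRCh38. The aligner, the annotation and the strand setting of the counting are not given in the sources used here. For 20637 of 20637 genes the deposited RPKM gave back a single length per gene (within 1 in 1000), so both tables hold the same reads. No pair of samples agreed within sampling noise.

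Counts were analysed with edgeR 4.0.16 in R 4.3.3 (filterByExpr, TMM factors, glmQLFit and glmQLFTest), without a block, and called at an adjusted p under 0.05 over all 14467 genes tested. The smallest exact p for 3 against 3 samples is 0.1. The test was run on simulated data first. Alternatives were library totals, DESeq2 1.42.0 and its size factors, upper-quartile factors, TMM factors without the ribosomal protein genes, other count filters (none, or at least 10 counts in every sample), a replicate block, limma 3.58.1 on log2(RPKM + 1) or log2(RPKM + 0.1), the counts of the pseudogene RPSAP58 added to its parent RPSA, and each sample left out.

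Coding lengths are those of APPRIS principal transcripts in GENCODE v29, and promoters are RefSeq windows matched by symbol, with 16 of the 83 genes unmatched. Genes given with values in every sample are the 10 called members with the smallest p, the 5 with the largest and smallest log2 fold change, the paralogs with their parents, RPL5, RPL11, RPLP0, RPLP1, RPLP2, RPSA, RPS27A and RPS6, the 5 with the highest RPKM, and up to 6 called genes of each other list. Some of them are given by fold change only, and some are not reported here. RPL3, RPL4, RPL8, RPL41, RPS19, RPS29, RPL17, RPS10, CD68, GAS5, SNHG5, MYC, LARP1, MTOR and MDM2 were named after their values were seen, as was the grouping by role and by coding length. The markers EPCAM, KRT8, KRT18, KRT19, LAPTM5, PDGFRA, UPK1A, GATA3, PPARG and FOXA1 were likewise named after their values were seen. The members and lists were chosen with earlier results of these data known.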

Additional observations from a re-analysis of the deposited data

How the results depend on the processing

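For the 83 genes, the median log2 fold change stayed negative under every alternative, between -0.36 and -0.26 for other scalings, filters and tests, and between -0.49 and -0.27 with 1 sample left out. The difference in the share of counts was between -2.54 and -1.41 percentage points with 1 sample left out. No alternative called a ribosomal protein gene higher.

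The number called lower, 25, was 15 with library totals, 15 with upper-quartile factors, 41 with DESeq2, 5 and 7 with limma on log2(RPKM + 1) and log2(RPKM + 0.1), and, with 1 sample left out, 1 at the lowest (vector replicate 1 removed) and 60 at the highest (vector replicate 2 removed). TOP genes called lower, 14, were 9 with library totals, 9 with upper-quartile factors, 8 and 9 with limma, and 6 to 19 with 1 sample left out. TOP genes called higher, 1, were 2 with library totals and with limma on log2(RPKM + 0.1), and 1 to 2 with 1 sample left out. With a replicate block, 1 ribosomal protein gene and 5 TOP genes were called lower. The deviations of same-numbered samples were negatively correlated (-0.13, -0.40 and -0.33), and the numbers were not taken as pairs. Factors computed without the family left the count at 25. Adding pseudogene counts did so too, but only RPSAP58, of RPSA, had counts to add, so the counts of the other genes did not change.

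Of 493 values for 29 named ribosomal protein genes over 17 alternatives, 378 kept direction and call, 82 lost the call, 11 gained it and 22 changed sign. The sign changed only in 4 genes that were not called. RPL39L was at 0.0870 with library totals, 0.0092 with upper-quartile factors, 0.0010 with at least 10 counts in every sample, 0.0873 and 0.0897 with limma, and between -0.138 and 0.0958 with 1 sample left out. RPL36A was at 0.0559, RPL36AL at 0.0559 and RPL26L1 at 0.0113 with library totals. With limma they were at 0.0334 and 0.0640 (RPL36A), 0.0635 and 0.0639 (RPL36AL), and 0.0126 and 0.0130 (RPL26L1). With 1 sample left out RPL36A reached 0.101 and RPL36AL was between -0.177 and 0.0600. Counting depth was no limit for genes at these levels, RPS10 and RPL36A apart, and the spread between 3 samples was.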
